A study of Mus musculus with 8 samples.

Results

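The genes described here encode the peptide hormones of the pancreatic islet: Ins1, Ins2, Gcg, Sst, Ppy, Pyy and Iapp. They were taken by symbol from a table of normalized gene counts, and all 7 symbols were present among its 11789 genes. RNA of whole pancreas was sequenced from 4 Daxxfl/flPdx1-CreTg (DC) mice and 4 wild type (WT) mice, all aged 6 weeks, with 1 library per mouse. In DC mice both alleles of Daxx, which encodes a chaperone of histone H3.3, are floxed, and Cre is driven by the promoter of Pdx1, a gene that the embryonic pancreatic epithelium switches on before its exocrine and endocrine lineages part. Cells of other origin, such as those of blood vessels, connective tissue and the immune system, are not expected to recombine. No group with Pdx1-Cre alone or floxed Daxx alone was analysed here, so what Daxx loss, Cre itself and the floxed locus each contribute cannot be told apart. The study's design text gives 2 females and 2 males per genotype without saying which library is which, so sex is no part of the comparison.

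Islets are small clusters of endocrine cells scattered through a pancreas that is otherwise built mainly of enzyme-secreting acinar cells. Beta cells secrete insulin and, from the same granules, islet amyloid polypeptide (amylin). Alpha cells secrete glucagon, which opposes insulin in the liver, delta cells secrete somatostatin, which restrains both, and PP cells secrete pancreatic polypeptide. Each hormone is made as a longer precursor that is cleaved in the secretory granule, and the genes are transcribed at very high rates in their own cell type. In RNA of a whole organ, fewer cells of a type and less RNA per cell cannot be told apart.

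Mice carry a pair of insulin genes, and how well reads separate them bears on every insulin value. Ins1 (ENSMUSG00000035804, chromosome 19, 52264297 to 52265476, GRCm38, plus strand) arose as a copy of Ins2 (ENSMUSG00000000215, chromosome 7, 142678656 to 142743381, minus strand). Over the 324 coding bases of Ins1 before the stop codon, the Ins1 and Ins2 transcripts of GENCODE M21 were identical at 300.0 and differed at 24. Their most divergent stretch of 90 bases, in the signal peptide and the start of the B chain, is shown with the 13 bases that differ in capitals. The Ins1 copy lies at chr19:52264631-52264720 on the plus strand, and both are from the annotated transcripts.
Ins1: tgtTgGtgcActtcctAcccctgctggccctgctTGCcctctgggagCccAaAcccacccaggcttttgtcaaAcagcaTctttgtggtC
Ins2: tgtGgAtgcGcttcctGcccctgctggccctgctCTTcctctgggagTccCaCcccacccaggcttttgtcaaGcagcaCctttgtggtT
Of all windows of 50 bases in the Ins1 coding sequence 1.82% occurred unchanged in an Ins2 transcript, and of windows of 75 bases 0% did. The sources used here do not give the read length. A read much shorter than these windows could be assigned to either gene.

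Promoter sequence of 6 of the 7 hormone genes was in the RefSeq table (GRCm38.p6), and the 250 bases before the start site are shown for 1 gene of each of the beta, alpha and delta cell. In Ins1 (chr19:52264047-52264296, plus strand) capitals mark the insulin E box GCCATCTG and the homeodomain core TAAT on either strand. In Gcg (chr2:62483654-62483903, minus strand) they mark TATAAA on either strand, and in Sst (chr16:23890845-23891094, minus strand) the cAMP response element TGACGTCA.
Ins1: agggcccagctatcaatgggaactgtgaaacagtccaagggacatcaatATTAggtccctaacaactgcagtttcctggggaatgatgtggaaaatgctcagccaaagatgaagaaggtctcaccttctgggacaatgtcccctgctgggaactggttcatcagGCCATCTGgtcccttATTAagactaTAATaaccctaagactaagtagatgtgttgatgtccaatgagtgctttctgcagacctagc
Gcg: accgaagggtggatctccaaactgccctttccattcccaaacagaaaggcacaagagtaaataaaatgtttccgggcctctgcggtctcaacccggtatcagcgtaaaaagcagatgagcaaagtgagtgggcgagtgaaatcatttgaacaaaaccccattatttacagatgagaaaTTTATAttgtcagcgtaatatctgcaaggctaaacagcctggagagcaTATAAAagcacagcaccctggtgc
Sst: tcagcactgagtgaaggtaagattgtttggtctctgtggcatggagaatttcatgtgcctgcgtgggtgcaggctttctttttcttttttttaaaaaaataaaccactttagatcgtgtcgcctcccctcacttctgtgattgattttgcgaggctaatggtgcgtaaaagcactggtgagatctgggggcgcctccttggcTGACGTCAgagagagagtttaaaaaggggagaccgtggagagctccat
Searched the same way on both strands, windows of 250 bases held TGACGTCA in 1.55% of 32851 annotated promoters, GCCATCTG in 1.11%, TATAAA in 12.4% and TAAT in 54.9%. Among the 6 hormone promoters TGACGTCA was found in Sst alone and GCCATCTG in Ins1 alone. TATAAA was found in Gcg and Ppy, and TAAT in Ins1, Gcg, Sst and Iapp. These matches describe the sequence and were not tested against the RNA values.

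Daxx, the targeted gene, was measured at 26.8, 23.3, 29.2 and 32.5 normalized counts in DC replicates 1 to 4, against 39.7, 58.7, 46.7 and 45.2 in WT replicates 1 to 4. The DC values lay below all WT values, at 26 to 31 reads per DC library and 45 to 51 per WT library. The log2 fold change, DC over WT, was -0.74 ± 0.20 (SE, exact permutation p = 0.0286, limma adjusted p = 0.9997). Which exons are floxed is not stated, and unrecombined cells still contribute Daxx RNA. The libraries held 7705789 to 10517508 reads over the listed genes, of which 74.7% to 80.3% fell on the 20 most abundant genes. The 9 acinar markers in the table summed to between 3180558 and 4732019 normalized counts in DC libraries and between 3909313 and 4710043 in WT libraries. Nothing in the labels says how the animals were raised or handled. The p-values set the genotype difference against the variation between libraries of 1 genotype, which may include sex and library preparation.

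None of the 7 hormone genes was called between DC and WT pancreas, and the differences between genotypes were smaller than those between mice of 1 genotype. Together the hormones took 0.0195% to 0.0779% of reads in DC libraries and 0.0198% to 0.0779% in WT libraries, a 3.99-fold span in all. The lowest DC library had 1508 hormone reads (0.0195%, 95% Wilson interval 0.0186% to 0.0205%) and the highest had 6737 (0.0779%, 0.0761% to 0.0798%), so counting error is small beside the span. Limma on log2(normalized count + 1) over 10468 tested genes called 0 of 7 hormones at an adjusted p under 0.05, against 0% of all tested genes. At an unadjusted p under 0.05 it also gave 0 of 7, against 2.88% of all tested genes in either direction and 1.57% lower in DC. EdgeR and DESeq2 on recovered reads likewise called 0 of 7. The 4 values of each genotype overlapped for each of the 7 hormones, while they did not overlap for 1.87% of tested genes.

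**Figure D1:**
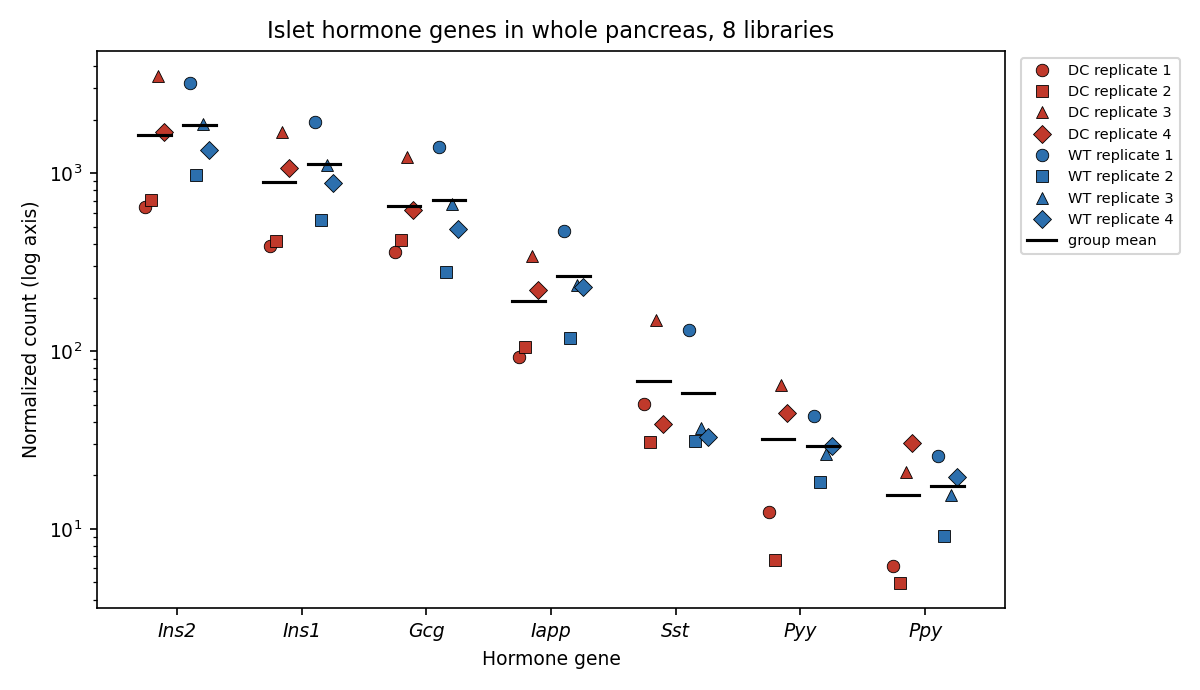
Normalized counts of the 7 hormone genes in each of 8 whole-pancreas libraries on a log axis, with DC (red) left of WT (blue), 1 marker shape per replicate number and a bar at each group mean. The values of both genotypes overlap in every gene, and DC replicate 3 and WT replicate 1 are among the 3 highest libraries in each of the 7 genes.

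Ins2, the ancestral insulin gene, was the most abundant hormone transcript. It had 647, 711, 3517 and 1703 normalized counts in DC replicates 1 to 4, against 3201, 983, 1903 and 1359 in WT replicates 1 to 4. The highest and the lowest library of all 8 were both DC libraries. The log2 fold change, DC over WT, was -0.39 ± 0.44 (SE), with a 95% interval of -1.32 to 0.54 (limma adjusted p = 0.9997).

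Ins1, the copied insulin gene, put the libraries in the same order as Ins2, apart from the 2 highest, which changed places. It had 388, 416, 1695 and 1065 normalized counts in DC replicates 1 to 4, against 1944, 545, 1119 and 882 in WT replicates 1 to 4. DC replicates 1 and 2 were the lowest libraries for both insulin genes, and DC replicate 3 and WT replicate 1 the highest. Ins1 gave a log2 fold change of -0.46 ± 0.42 (SE), with an interval of -1.35 to 0.43 (limma adjusted p = 0.9997).

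Iapp (ENSMUSG00000041681, chromosome 6, 142298423 to 142303961) encodes amylin, which slows gastric emptying and is released with insulin. It had 92.9, 105, 343 and 222 normalized counts in DC replicates 1 to 4, against 471, 119, 235 and 230.2 in WT replicates 1 to 4. WT replicate 1 stood above every DC library, and WT replicate 2 lay just above the 2 lowest DC libraries. Iapp gave a log2 fold change of -0.50 ± 0.40 (SE), with an interval of -1.35 to 0.34. Amylin thus had the most negative value of the hormones, within its error (limma adjusted p = 0.9997, exact permutation p = 0.429).

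Gcg (ENSMUSG00000000394, chromosome 2, 62474530 to 62483650) encodes proglucagon, which alpha cells cleave to glucagon and intestinal L cells to GLP-1. It had 359, 421, 1226 and 617 normalized counts in DC replicates 1 to 4, against 1400.2, 279, 675 and 484 in WT replicates 1 to 4. The lowest library was WT replicate 2, which was not the lowest for insulin. The log2 fold change was -0.04 ± 0.41 (SE), with an interval of -0.90 to 0.82 (limma adjusted p = 0.9997).

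Sst (ENSMUSG00000004366, chromosome 16, 23889573 to 23890958) encodes somatostatin, made by delta cells and also by gut endocrine cells and neurons. It had 50.6, 30.8, 149.97 and 38.8 normalized counts in DC replicates 1 to 4, against 131, 31.3, 37.0 and 32.8 in WT replicates 1 to 4. A single library of each genotype stood far above its other 3, and the remaining 6 lay between 30.8 and 50.6. Sst gave a log2 fold change of 0.21 ± 0.47 (SE), with an interval of -0.78 to 1.21 (limma adjusted p = 0.9997), and it was -0.26 without DC replicate 3.

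Ppy and Pyy encode pancreatic polypeptide and peptide YY, members of the neuropeptide Y family that bind the same class of receptors. Their genes lie 5356 bases apart on the minus strand of chromosome 11, Ppy at 102099930 to 102101319 and Pyy at 102106676 to 102107832. Ppy had 6.19, 4.998, 20.8 and 30.4 normalized counts in DC replicates 1 to 4, against 25.6, 9.13, 15.6 and 19.5 in WT replicates 1 to 4. Pyy had 12.4, 6.66, 64.6 and 45.1 in DC replicates 1 to 4, against 43.2, 18.3, 26.3 and 29.2 in WT replicates 1 to 4. DC libraries held both the lowest and the highest values of each gene, so that WT values lay inside the DC range. The DC values split into a low pair and a high pair in both genes.

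Both are read from few molecules. Ppy rests on 6 to 29 reads per library and Pyy on 8 to 62. The 6 Ppy reads of DC replicate 2 have a 95% Poisson interval of 1.83 to 10.9 normalized counts, and the 29 reads of DC replicate 4 one of 20.4 to 43.7. These intervals, which cover counting error only, do not overlap. The log2 fold change was -0.41 ± 0.50 (SE) for Ppy and -0.29 ± 0.53 for Pyy (limma adjusted p = 0.9997 each). For Pyy the mean normalized count was higher in DC, at 32.2 ± 27.4 in DC and 29.2 ± 10.4 in WT (SD, n = 4), so mean and log2 scale differ in sign.

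Log2 fold changes were below 0 for 6 of the 7 hormones, with a median of -0.39, while 51.9% of tested genes lay below 0 with a median of -0.01. The exception was Sst. With equal library totals Gcg also lay above 0, and on recovered reads edgeR and DESeq2 put Pyy above 0. Most hormones rose and fell together over the 8 libraries, so their signs are not separate observations. The median half-width of the hormones' 95% intervals was 0.93 log2 units, a factor of 1.91, against 0.41 log2 units for all tested genes. A difference in hormone RNA smaller than about that size could not be told from 0 with these 8 mice. These intervals are of single genes before adjustment, while a call required a p-value adjusted over all tested genes. A larger difference could therefore also go uncalled, and the smallest one that would be called was not estimated.

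Scaled to the joined length of all annotated exons of a gene, the order of the levels was Ins2, Ins1, Gcg, Iapp, Sst, Pyy and Ppy. For Ins2 this length was 1312 bases over 9 transcripts, while the Ins2 transcript aligned with Ins1 above has 478 bases. Its level per kb and the insulin share may therefore be understated. Ins2 averaged 1336 ± 829 normalized counts per kb over all 8 libraries (SD), and Ins1 averaged 948 ± 543. Gcg averaged 457 ± 276, Iapp 233 ± 133, Sst 87.1 ± 67.5, Pyy 48.7 ± 30.5 and Ppy 33.1 ± 18.5 normalized counts per kb. Within a library each gene lay above the next in this order in 8 of 8 libraries, except for Sst over Pyy, which held in 6 of 8. Across libraries neighbouring genes overlapped, so the order is one within a mouse, not between mice. Per kb, insulin transcripts made up 70.2% ± 3.99 of the summed hormone level in DC libraries and 73.9% ± 2.20 in WT libraries (SD, n = 4). Gcg made up 16.6% ± 3.42 per kb in DC and 13.3% ± 1.84 in WT.

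The hormones were among the genes that differed most between mice of the same genotype, and some other genes differed more. The SD within genotype was 0.85 to 1.09 log2 units over the 7 hormones, with a median of 0.93, whereas the median of all tested genes was 0.27. Ranked among the 10468 tested genes, the 7 hormones lay between the 98.31 and 99.38 percentiles. The median was 0.39 for tested genes with a mean normalized count of 10 to 50, and 0.16 for those with a mean of at least 500. For the 4 tested adipocyte markers it was 1.62, above every hormone. It was 0.77 for the 16 tested genes of the secretory granule and secretion, and 0.23 for the 9 tested acinar markers. A wide spread is thus not particular to the hormones. This spread is a description with no test, and without DC replicate 3 and WT replicate 1 together the median SD of the hormones was 0.64.

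**Figure D2:**
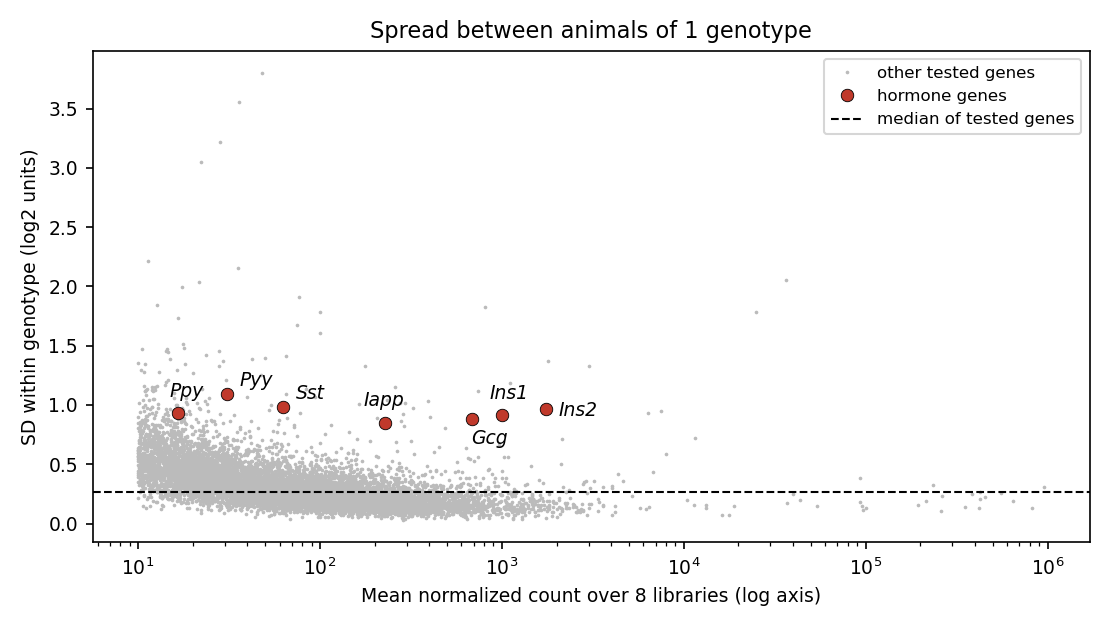
SD of log2(normalized count + 1) within genotype against the mean normalized count (log axis) for 10468 tested genes in grey, with the 7 hormone genes in red and the median of all tested genes as a dashed line. The hormones lie between 0.85 and 1.09 log2 units at every level of abundance, above the median of 0.27.

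The same mice were high or low in most hormones. DC replicate 3 and WT replicate 1 were among the 3 highest libraries for 7 of 7 hormones, and they were the 2 highest for 5. DC replicates 1 and 2 and WT replicate 2 were the 3 lowest libraries for 6 of 7. The exception was Sst, in which DC replicate 1 stood behind DC replicate 3 and WT replicate 1 only. High and low mice occurred in both genotypes.

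Over the 8 libraries log2 values of Ins1 and Ins2 had a Pearson r of 0.99 and a Spearman rho of 0.98 (exact permutation p = 1.24e-04 and 0.0004, Benjamini-Hochberg adjusted over 21 pairs 0.0013 and 0.0042). Iapp and Ins1 had an r of 0.99 and a rho of 0.98 (exact p = 7.44e-05 and 0.0004, adjusted 0.0013 and 0.0042). Between cell types the values were lower, with an r of 0.92 and a rho of 0.90 for Gcg and Ins2 (exact p = 0.00250 and 0.0046, adjusted 0.0058 and 0.0137). Pyy and Ppy had an r of 0.93 and a rho of 0.93 (exact p = 6.94e-04 and 0.0022, adjusted 0.0036 and 0.0094). Among the 15 pairs that do not involve Sst, r ran from 0.70 to 0.99, and 14 had an adjusted Pearson p under 0.05 and 8 an adjusted Spearman p. Both genes of a pair share the library and its scaling.

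Some of these relations kept a similar size when libraries were left out, and others fell. Without the 2 libraries farthest from the median of the first gene, r was 0.996 for Ins2 and Ins1 and 0.976 for Ins1 and Iapp. It was 0.89 for Ins2 and Gcg, and 0.99 for Pyy and Ppy. Over the 15 pairs without Sst this r ran from 0.56, for Gcg and Pyy, to 0.998. Of these pairs 10 had an exact permutation p under 0.05 before adjustment. Without DC replicate 3 and WT replicate 1 together, 4 of the 15 pairs had an adjusted Pearson p under 0.05 by the exact permutation test over 6 libraries. These were Ins1 with Ins2, Iapp with either insulin gene, and Pyy with Ppy. The 6 pairs of Ins1, Ins2 or Iapp with Ppy or Pyy kept an r of 0.85 to 0.92 over these 6 libraries, against 0.84 to 0.91 over all 8, with adjusted p-values of 0.073 to 0.0875 by the exact permutation test. Pairs with Gcg had lower values. For Gcg with Ins2 the r over these 6 libraries was 0.77 (exact permutation p = 0.083, adjusted 0.135), so that relation did not pass the test in these 6 libraries. Sst fell into separate clusters of libraries, with DC replicate 3 and WT replicate 1 high. Over all 8 libraries, with that gap included, its r ran from 0.44 with Ppy to 0.85 with Gcg (adjusted exact permutation p 0.274 and 0.025). For Gcg the rho was 0.67 (adjusted exact permutation p = 0.103). In the 6 libraries of its lower cluster its r with the other 6 hormones ran from -0.19 to 0.09 (exact permutation p 0.765 to 0.958), on 24 to 49 Sst reads per library. These 6 were picked by Sst's own values, which span only 30.8 to 50.6. A low r there therefore cannot show whether Sst varies with the other hormones.

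**Figure D3:**
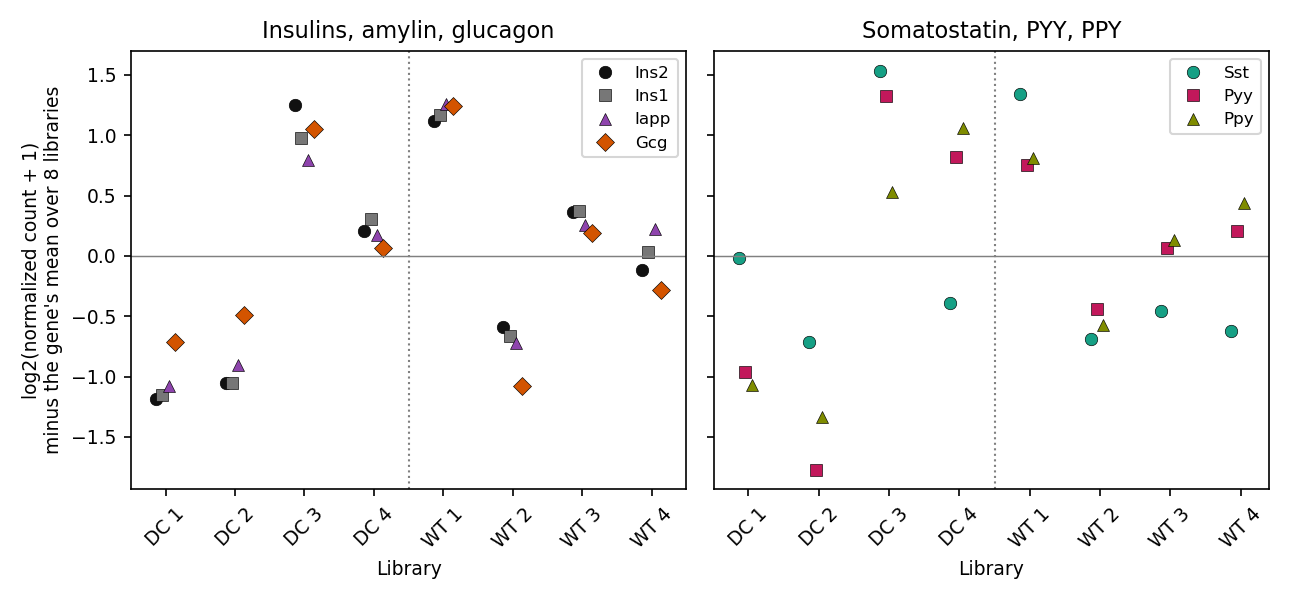
Deviation of log2(normalized count + 1) from each gene's mean over 8 libraries, with insulins, amylin and glucagon on the left and somatostatin, peptide YY and pancreatic polypeptide on the right, and DC libraries before WT libraries in each panel. Ins2, Ins1 and Iapp have nearly the same profile (r of 0.97 to 0.99), while Sst is above its mean in DC replicate 3 and WT replicate 1 and below it in the other 6.

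Ratios within a library cancel the scaling of that library. All 21 pairs of the 7 hormones were compared, and none passed a test between DC and WT. The smallest exact two-sided permutation p was 0.0857 and the smallest adjusted over the 21 ratios was 0.800, where the design allows no p below 0.0286. The genotypes overlapped in each of the 21 ratios.

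The ratio of Ins1 to Ins2 was the steadiest. It was 0.600, 0.584, 0.482 and 0.625 in DC replicates 1 to 4, against 0.607, 0.554, 0.588 and 0.649 in WT replicates 1 to 4. Each library thus held fewer Ins1 than Ins2 reads, and DC replicate 3, the library with most Ins2, had the lowest ratio. The log2 ratio differed by -0.07, DC minus WT, with a 95% permutation interval of -0.42 to 0.17 (exact permutation p = 0.571). Its SD within genotype was 0.14 log2 units, where the read numbers alone would give 0.07, and its chi-square within genotype was 6.27 per degree of freedom.

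Iapp relative to Ins2 had an SD within genotype of 0.25 log2 units. The ratio averaged 0.130 ± 0.0227 in DC and 0.140 ± 0.0229 in WT (SD, n = 4). The log2 difference was -0.11, with an interval of -0.79 to 0.29 (exact permutation p = 0.600). Again the lowest value, 0.0974, was that of DC replicate 3.

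Glucagon relative to the beta cell genes gave the ratio with the smallest p. Gcg to Iapp was 3.87, 4.01, 3.58 and 2.79 in DC replicates 1 to 4, against 2.97, 2.35, 2.88 and 2.10 in WT replicates 1 to 4. DC replicates 1 to 3 lay above all WT libraries and DC replicate 4 within the WT range. The log2 difference was 0.46, with an interval of -0.09 to 0.92 (exact permutation p = 0.0857, adjusted over 21 ratios 0.800).

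With Ins2 in the denominator the Gcg ratio was 0.555, 0.591, 0.349 and 0.363 in DC replicates 1 to 4, against 0.438, 0.284, 0.355 and 0.356 in WT replicates 1 to 4. The low-insulin DC replicates 1 and 2 had the highest values and the other DC libraries were within the WT range. The log2 difference was 0.35, with an interval of -0.32 to 1.05 (exact permutation p = 0.229). Its SD within genotype was 0.34 log2 units against 0.08 from read numbers alone. Libraries of 1 genotype thus differed in this ratio beyond counting error, with a chi-square of 22.2 per degree of freedom. Read numbers over the listed genes gave 6.97 to 26.0 per degree of freedom between pairs of libraries of 1 genotype. Such a value grows with read number, and that set includes genes with far more reads than the hormones. The 2 measures therefore do not show whether this ratio varied more or less than other genes. With 1 library per mouse, differences between mice and between library preparations cannot be told apart.

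Somatostatin varied more widely, with an SD within genotype of 0.60 log2 units. Sst to Ins2 was 0.0781, 0.0433, 0.0426 and 0.0228 in DC replicates 1 to 4, against 0.0410, 0.0318, 0.0194 and 0.0241 in WT replicates 1 to 4. DC replicate 1 was the highest of all 8, and DC replicate 4 lay between the lowest WT library and the other 3. The log2 difference was 0.60, with an interval of -0.82 to 1.99 (exact permutation p = 0.200), and it was 0.31 without DC replicate 1. The ratio of Ppy to Pyy, by contrast, ran from 0.323 to 0.750 with a chi-square of 0.90 per degree of freedom within genotype, a spread no wider than counting error. Its log2 difference was -0.11, with an interval of -1.02 to 0.57 (exact permutation p = 0.857).

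**Figure D4:**
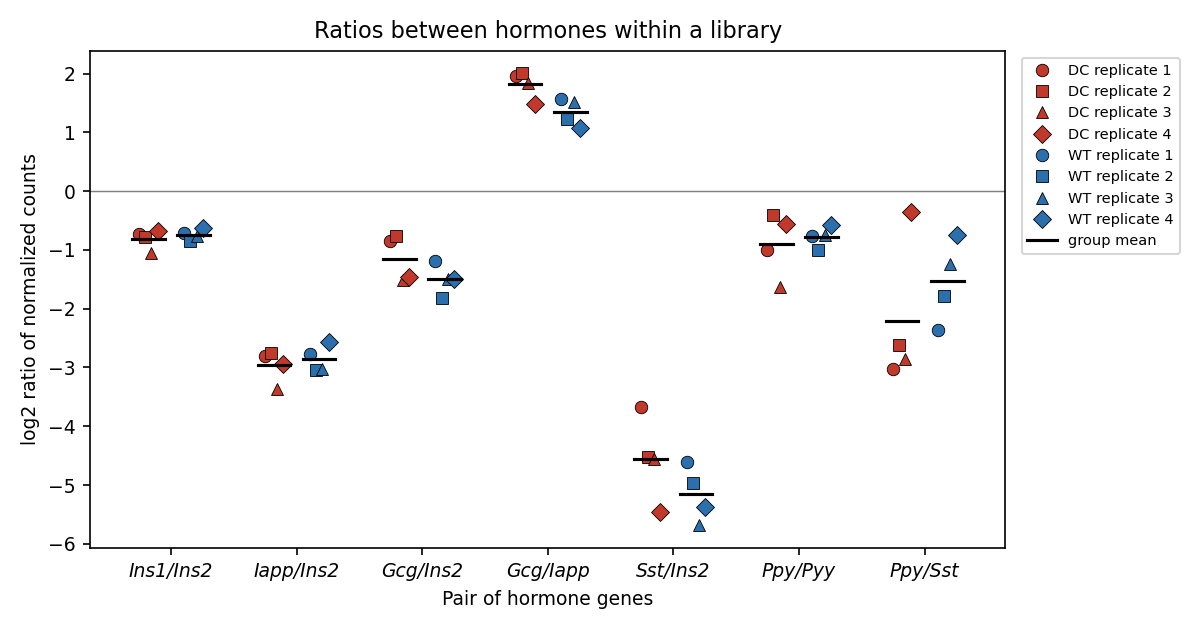
Log2 ratio of normalized counts for 7 pairs of hormone genes in each library, with DC (red) left of WT (blue), 1 marker shape per replicate number and a bar at each group mean. Ins1/Ins2 stays between 0.482 and 0.649 as a plain ratio in all 8 libraries, Gcg/Iapp is above every WT library in 3 of 4 DC libraries, and the genotypes overlap in each pair shown.

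Other genes of the hormone pathway gave no call either. Of genes for prohormone processing, 0 of 6 tested were called, with 0 above and 6 below a log2 fold change of 0 and a median of -0.14. Of genes for the secretory granule and secretion, 0 of 16 were called, with 2 above and 14 below and a median of -0.19. Of islet transcription factors 0 of 5 were called (4 above, 1 below, median 0.07), and Rfx3, a ciliary and endocrine transcription factor gene at 50.4 ± 6.45 in DC and 62.7 ± 6.72 in WT, was the 1 gene of these lists without overlap between genotypes, where 1.87% of all tested genes had none. It is named for that value. Among receptors of the hormones 0 of 6 were called, with 2 above and 4 below and a median of -0.12. Of all tested genes 0% were called, and 51.9% lay below 0. Many processing and granule genes varied with the hormones over the same 8 libraries, so these counts of signs are not counts of separate observations.

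The convertases that cut the precursors differed in pattern. Pcsk2, the main convertase of alpha cells, had 64.0, 66.6, 216 and 89.2 normalized counts in DC replicates 1 to 4, against 234, 56.1, 112 and 85.9 in WT replicates 1 to 4. Its high libraries were those of the hormones. Pcsk1, the convertase that starts proinsulin processing, averaged 56.4 ± 17.3 in DC and 76.3 ± 17.97 in WT, with a log2 fold change of -0.45 (limma adjusted p = 0.9997) and an r of 0.22 over 8 libraries with the summed hormones. Cpe, the carboxypeptidase that trims the cut ends, averaged 288 ± 55.4 in DC and 302 ± 97.6 in WT. None of these was called.

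Granule and beta cell genes showed the same wide spread. Chga, which encodes the granule protein chromogranin A, averaged 221 ± 167 in DC and 245 ± 162 in WT. Slc30a8, the zinc transporter that loads insulin granules, averaged 18.6 ± 12.8 in DC and 24.2 ± 15.9 in WT, and the glucose transporter gene Slc2a2 averaged 19.7 ± 12.0 in DC and 26.2 ± 7.24 in WT. None of them was called. Pdx1, the transcription factor whose promoter drives Cre, averaged 52.8 ± 10.996 in DC and 49.6 ± 10.3 in WT, with an r of -0.15 over 8 libraries with the summed hormones.

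Receptor transcripts varied less than the hormones. Insr, the insulin receptor, averaged 552 ± 51.6 in DC and 607 ± 63.5 in WT. Glp1r, the receptor of the GLP-1 cut from proglucagon, averaged 394 ± 58.8 in DC and 418 ± 27.6 in WT. The receptor-modifying gene Ramp1, whose protein is a partner of the amylin and CGRP receptors, was named because it was the 1 gene of 6 tested receptor genes, and of all these pathway lists, with an unadjusted limma p under 0.05, a threshold that 2.88% of all tested genes passed. It averaged 129 ± 22.2 in DC and 182 ± 38.0 in WT (exact permutation p = 0.0857, limma adjusted p = 0.9997). Its genotypes overlapped.

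The non-hormone genes whose pattern over the 8 libraries was most like the summed hormones included granule genes. By Pearson r of log2 values the 10 nearest were Chga (0.992), Abcc8 (0.968), Ntrk2 (0.961), Insrr (0.960), Pcsk2 (0.954), Scg2 (0.952), Podxl (0.952), Slc7a14 (0.9501), Bace2 (0.932) and Acaa2 (0.929). Abcc8 encodes the sulfonylurea receptor of the beta cell potassium channel, and Scg2 encodes secretogranin II. For single hormones the nearest gene was Chga for Ins1, Ins2 and Iapp, Pcsk2 for Gcg, Fam207a for Sst, Enho for Ppy and Smarca2 for Pyy. These are the highest of 10468 values over 8 libraries and are given with no test.

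An r above 0.7 with the summed hormones was found for 1.90% of tested genes. It was found for 4 of 6 tested processing genes and 9 of 16 granule and secretion genes, and for 0 of 5 islet transcription factors and 0 of 6 receptors. Markers of other cell types gave 0 of 9 for acinar cells, 0 of 7 for ductal cells, 0 of 7 for endothelium, 0 of 8 for stroma, 0 of 4 for adipocytes and 0 of 5 for myeloid cells. Gut endocrine cells also make Gcg, Sst and Pyy. Of the gut epithelium markers 2 of 6 were measured, Vil1 and Lgals4, and their sum was 7.50 to 25.0 normalized counts in DC libraries and 17.6 to 25.7 in WT libraries. The lowest sum was that of DC replicate 2, which also had the lowest Sst, Ppy and Pyy, and the part of gut tissue in these values was not tested.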

How the data were processed

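The deposited values are normalized gene counts, a signal scaled per library by the authors. The submitters' processing notes name STAR 2.6.0b, DESeq2 and GRCm38. Which tool counted reads, with which annotation and gene filter, is not given in the sources. The smallest step of each library turned 100% of its values into whole reads (tolerance 0.001), and each gene had 5 reads or more in 4 or more of the libraries. Replicate numbers follow accession order and pair no mice.

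Genes with a mean of at least 10 entered limma 3.58.1 (R 4.3.3, trend option, genotype as the only term) on log2(value + 1), with two-sided p-values adjusted by Benjamini-Hochberg over 10468 genes. The fit was checked on simulated counts. Ratios were tested by exact two-sided permutation over 70 relabellings, and their intervals invert that test. Correlations were tested by exact permutation of pairings. Alternatives were pseudocounts of 0.5 and 8, TMM, equal totals, no minimum or a minimum mean of 50, robust moderation, a threshold of 0.1 on adjusted p, leaving out libraries 1 at a time, and edgeR 4.0.16 and DESeq2 1.42.0 on recovered reads. The 7 hormones and the gene lists were chosen with earlier results of these data known. Named genes are the hormones, Daxx, a fixed choice of pathway genes and the genes most alike; others are said to be chosen for their values. Of the fixed pathway genes, Nkx6-1, Gcgr, Sstr5, Npy4r, Calcr and Ghrl were not analysed here, and Mafa, Hhex and Ucn3 were under the minimum. Depth is given with the results. Exon lengths and coordinates are from GENCODE M21, which matched 11781 gene IDs without their version.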

Additional observations from a re-analysis of the deposited data

Results flagged for a closer look

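Each genotype's 4 libraries were compared by Dixon's ratio of gap to range in 76 groups of hormones, ratios and named genes. It picked out 5 values, where chance gives 3.8, about 5% of groups. Sst stood at 150 normalized counts in DC replicate 3 against 30.8 to 50.6 in the other DC libraries, and at 131 in WT replicate 1 against 31.3 to 37.0 in the other WT libraries. Pcsk2 stood at 216 in DC replicate 3 against 64.0 to 89.2 in the other DC libraries. The ratio of Ppy to Gcg was 0.0493 in DC replicate 4 against 0.0119 to 0.0172, and that of Ppy to Sst was 0.784 against 0.122 to 0.162. DC replicate 4 was the library with the most Ppy and rests on 29 Ppy reads.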

How the results depend on the processing

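No hormone, ratio or pathway gene was called under any alternative run, with adjusted p-values of the hormones from 0.965 to 0.99996 over 18 settings. With a minimum mean of 50, Ppy and Pyy were not tested. Equal library totals moved the median of all tested genes to 0.11, which put Gcg at 0.082, Cpe at 0.091 and Glp1r at 0.025; relative to that median Gcg was at -0.03, Cpe at -0.02 and Glp1r at -0.09. On recovered reads Pyy was at 0.088 with edgeR and 0.13 with DESeq2. Leaving out 1 library at a time gave log2 fold changes of -0.41 to 0.37 for Gcg, -0.26 to 0.70 for Sst, -0.79 to 0.25 for Pyy, -0.54 to 0.22 for Pcsk2, -0.20 to 0.16 for Cpe, -0.67 to 0.16 for Chga, -0.73 to 0.023 for Slc30a8 and -0.015 to 0.23 for Pdx1. Log2 ratios ran from -0.11 to 0.010 for Ins1/Ins2, from -0.18 to 0.018 for Iapp/Ins2 and from -0.28 to 0.13 for Ppy/Pyy. These ratios were above 0 without DC replicate 3, and Sst was below 0 without it. Gcg was above 0 without DC replicate 1 or 2 or WT replicate 1 or 3. Log2 fold changes ran from -0.87 to -0.059 for Ins2, -0.86 to -0.15 for Ins1, -0.85 to -0.17 for Iapp and -0.83 to -0.030 for Ppy. Unadjusted limma p-values without DC replicate 3 were 0.0253 for Ins2, 0.0336 for Ins1 and 0.0336 for Iapp, and 0.0389 for Iapp without WT replicate 2. The log2 difference ran from 0.31 (without DC replicate 1) to 0.90 (without DC replicate 4, exact permutation p = 0.0571) for Sst/Ins2. It ran from 0.22 to 0.47 for Gcg/Ins2 and from 0.37 to 0.58 for Gcg/Iapp. For Gcg/Iapp the exact permutation p was 0.0286 before adjustment without DC replicate 4, the only DC library within the WT range. That is the smallest p the test allows with 1 DC library left out. Leaving out DC replicate 3 and WT replicate 1 together, chosen after seeing the data, gave a log2 difference of 0.011 for Gcg, 0.017 for Ins1/Ins2, 0.046 for Iapp/Ins2 and 0.13 for Ppy/Pyy, a median SD within genotype of 0.64 in place of 0.93, and 4 in place of 14 pairs with an adjusted p under 0.05. That count rests on 6 libraries, and the pairs of Ins1, Ins2 or Iapp with Ppy or Pyy still had an r of 0.85 to 0.92. Over all tested genes limma called 0 (302 had an unadjusted p below 0.05), edgeR 0 (309) and DESeq2 1 (216), and that gene was no hormone. No paired analysis was possible because the replicate numbers follow accession order and the labels pair no mice. Depth limits Ppy, Pyy and Sst most.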
